A study of Mus musculus with 2 samples.

Results

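Rn45s, the mouse gene for the 45S pre-ribosomal RNA, was followed in the nascent RNA of bone marrow-derived macrophages (BMDMs). Its members were all segments that carry the gene name Rn45s in the deposited lists of transcribed segments. These were 6 of 43122 segments in the control library and 5 of 51365 segments in the IL-4 library. The assay was GRO-seq (global run-on sequencing), in which isolated nuclei extend the transcripts of engaged polymerases with bromine-labelled UTP and the labelled RNA is captured with an antibody. The cells came from wild-type mice of 8 to 12 weeks on the C57BL/6 background. Bone marrow cells of both groups were differentiated for 6 days in L929 supernatant, a source of the macrophage growth factor M-CSF. One group was then exposed to interleukin-4 (IL-4), the cytokine of alternative macrophage polarization, at 20 ng/ml for 1 hr. The control group was not. Run-on reactions were pooled before library preparation, which left 1 library per condition. No value below has a replicate (n = 1 per condition), so no difference could be set against biological spread and no test was made. The lists give a score for each segment, printed to 1 decimal. Neither read counts nor depth are in the lists, and whether the score was scaled to library size or to segment length is not stated.

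Ribosomal RNA genes lie in tandem repeats in the nucleolus and are transcribed by RNA polymerase I, not by the polymerase II that makes mRNA. Each repeat yields a long precursor in which the 5' external transcribed spacer (5' ETS), 18S rRNA, internal spacer 1 (ITS1), 5.8S rRNA, internal spacer 2, 28S rRNA and the 3' external spacer follow one another. The spacers are cut out and degraded, while 18S, 5.8S and 28S rRNA are kept in the small and large ribosomal subunits. In growing cells, and macrophages in M-CSF are such cells, this transcription is among the most active in the nucleus. The mm10 assembly places the Rn45s name on a short stretch of chromosome 17 that holds the front of the precursor. A read from any of the repeats that matches this stretch can be placed there, so that the values describe the repeats jointly.

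The annotated gene ran from 39842997 on the plus strand of chromosome 17 (mm10, which is GRCm38), and the annotation of the locus ended at 39848827, a length of 5831 bp. All segments were annotated as non-coding, in exon 1 of 1 of the Rn45s transcript. Their place within the precursor was read from transcript models of GENCODE M21 on the same build. The model of Gm26917 (39843013-39846341, plus strand) lay within the 5' ETS. The model of CT010467.1 (39846353-39848201), of type rRNA, spanned the 1849 bp of 18S, although it is drawn on the minus strand. The bases after it belong to ITS1. Models of Gm42418 on the plus strand and of AY036118 on the minus strand overlapped the 18S model, so that different names for the same stretch are in use.

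The 4 stretches of sequence that follow show the ends of the parts compared here. They were read from the GENCODE M21 transcript models, turned to the plus strand of mm10 and written 5' to 3'. The first is the start of the 5' ETS, chr17:39843013-39843112, whose GC content was 68.0%. The next is the place where coverage after IL-4 stopped in the 5' ETS, chr17:39845814-39845963, with capitals for bases covered in both libraries and lower case for bases covered in control only. The third is the start of 18S, chr17:39846353-39846557, in the same notation, where coverage after IL-4 resumed 105 bases into 18S. The last is the end of 18S, chr17:39848102-39848251, with 18S in capitals and ITS1 in lower case.
5' ETS start: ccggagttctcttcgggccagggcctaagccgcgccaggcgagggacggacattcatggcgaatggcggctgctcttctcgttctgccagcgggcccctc
5' ETS before the gap: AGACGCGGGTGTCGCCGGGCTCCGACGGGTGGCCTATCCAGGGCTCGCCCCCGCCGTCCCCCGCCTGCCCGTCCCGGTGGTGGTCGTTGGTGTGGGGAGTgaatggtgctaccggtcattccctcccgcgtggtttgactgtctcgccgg
18S start: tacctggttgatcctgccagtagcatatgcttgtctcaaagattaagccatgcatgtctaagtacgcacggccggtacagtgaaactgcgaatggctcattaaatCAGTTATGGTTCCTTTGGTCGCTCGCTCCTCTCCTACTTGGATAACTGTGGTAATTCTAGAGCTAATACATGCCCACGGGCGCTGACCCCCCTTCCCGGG
18S end: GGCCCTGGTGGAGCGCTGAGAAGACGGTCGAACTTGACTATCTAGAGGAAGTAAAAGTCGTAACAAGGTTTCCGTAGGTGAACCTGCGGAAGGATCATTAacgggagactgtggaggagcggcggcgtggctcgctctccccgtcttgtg

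The parts differed in base composition. GC content was 69.1% in the 5' ETS and 55.4% in 18S. The share of T, the base at which a labelled U can enter the run-on RNA, was 22.6% in the 5' ETS and 21.9% in 18S.

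The control segments tiled the locus from position 352 of the gene to within a few bases of its end. Segment 1 (39843348-39844638, 1291 bp) had the lowest score, 255.2, and lay wholly in the 5' ETS. Segment 2 (39844611-39845893, 1283 bp), also in the 5' ETS, scored 1009.3. Segment 3 (39845859-39846495, 637 bp) joined the end of the 5' ETS to the start of 18S and scored 603.9. Segments 4 to 6, from 18S into ITS1, scored higher than those before them, segment 5 only slightly above segment 2. Segment 4 (39846461-39847063, 603 bp), in the front of 18S, scored 1808.9 and was the highest of the control segments. Segment 5 (39847029-39847462, 434 bp), in the middle of 18S, scored 1027.1. Segment 6 (39847435-39848825, 1391 bp) ran from 18S into ITS1 and scored 1625.4. It also held the largest part of the control Rn45s signal, 38.9% of its score times length.

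After IL-4 the locus was divided differently. Segment 1 (39842996-39845384, 2389 bp) began at the annotated start of the gene and scored 232.7. Segment 2 (39845366-39845913, 548 bp), still in the 5' ETS, scored 818.1. No segment was called over the next 544 bp. Segment 3 (39846458-39847060, 603 bp) in 18S scored 2099.7, the highest score of any segment in that library. Segment 4 (39847026-39847457, 432 bp) scored 1068.9. Segment 5 (39847435-39848836, 1402 bp), from 18S into ITS1, scored 1761.2 and held 47.5% of the IL-4 Rn45s signal. In both libraries, then, the scores in the front of the 5' ETS were the lowest and those in the front of 18S were the highest.

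**Figure D1:**
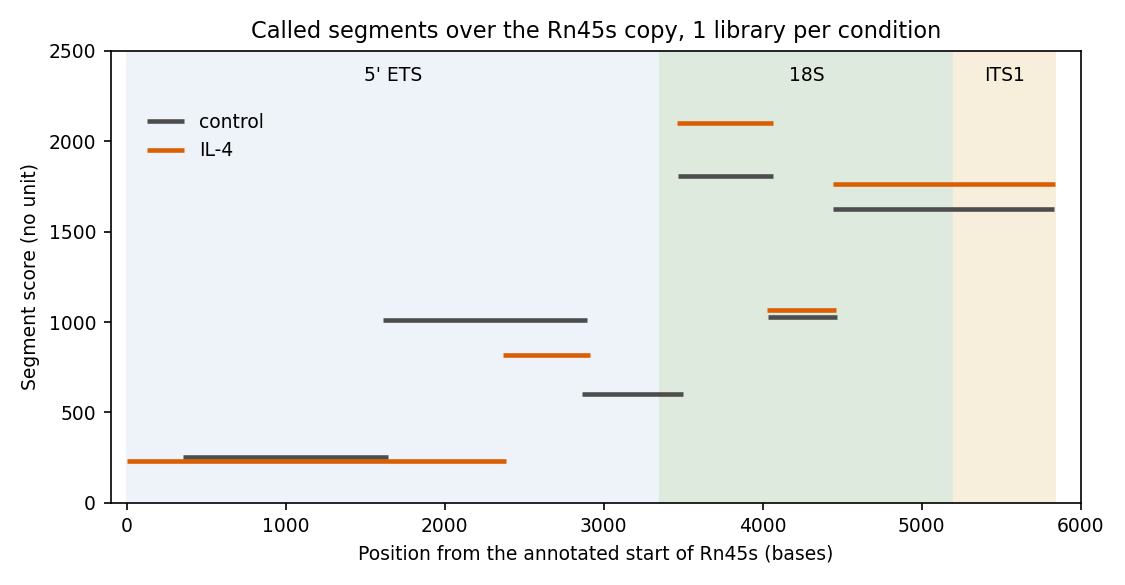
Score of each called Rn45s segment (vertical axis, no unit) against its position from the annotated start of the gene in bases (horizontal axis), for the control library (grey) and the IL-4 library (orange), 1 library each. The 3 segments over 18S and ITS1 have nearly the same ends in both libraries, whereas the 5' ETS is divided differently and 544 bp around the 18S start are covered in control only.

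All Rn45s segments lay on the plus strand, the strand on which the precursor is made, and no minus-strand segment was called at the locus in either library. The locus also stood alone. The nearest called segment upstream was 2307283 bp away in control and 2305199 bp away after IL-4, and the nearest downstream was 1943898 bp and 1105369 bp away, respectively.

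From 18S onward, segments of both libraries could be compared as called, since their ends differed by 11 bp at most. The front 18S segment scored 1808.9 in control and 2099.7 after IL-4, a ratio of 1.16. The middle 18S segment scored 1027.1 and 1068.9, a ratio of 1.04. The segment over the end of 18S and ITS1 scored 1625.4 and 1761.2, a ratio of 1.08. All 3 were therefore higher as printed after IL-4, by factors for which these data give no replicate error. In the 5' ETS, where the limits of the segments differed, most overlapping pairs were lower as printed after IL-4. The front segment scored 255.2 in control and 232.7 after IL-4, a ratio of 0.912 between segments of unequal length. The next pair, which shared 528 bp, scored 1009.3 and 818.1, a ratio of 0.811. Control segment 2 also shared 774 bp with IL-4 segment 1, at 1009.3 and 232.7, a ratio of 0.231. The exception was control segment 3, which shared 55 bp with IL-4 segment 2 and scored lower, at 603.9 against 818.1, a ratio of 1.36. All these ratios are as printed, whereas the median gene, by highest score, had a log2 ratio of -0.38 over 8879 genes. The ratios of 0.912 and 0.811 (log2 -0.13 and -0.30) stood above that median, and 0.231 (log2 -2.12) stood below it. The 3 ratios from 18S onward stood above it too.

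To compare the parts of the precursor whatever the limits of the segments, each base was given the score of the segment over it, or the mean where the ends of neighbouring segments overlapped. Over the 5' ETS (3356 bp), 3005 bp were covered in control and 2917 bp after IL-4. The score summed over these bases was 1877000 in control and 994000 after IL-4, a log2 ratio of -0.92. The mean score per covered base was 624.6 and 340.8. 18S went in the other direction as printed. Its 1849 bp were covered in full in control and over 1744 bp after IL-4, and the sum was 2741000 and 2991000, a log2 ratio of 0.13. In ITS1 the sum was 1014000 over 624 bp in control and 1118000 over 635 bp after IL-4, a log2 ratio of 0.14. No segment lay in ITS1 alone. Its bases carry the single score of a segment that begins in 18S, so ITS1 was not measured apart from 18S. Over the whole locus the sum was 5632000 and 5103000, a log2 ratio of -0.14. All these ratios are as printed. For score times length summed per gene, the median log2 ratio over 8879 genes was 0.15. The ratios for 18S and ITS1 stood just under that median, and those for the 5' ETS and the whole locus further below it. The difference of the sums, IL-4 minus control, was -882764 in the 5' ETS, 250149 in 18S and 104112 in ITS1.

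The make-up of the Rn45s signal differed accordingly. The 5' ETS held 33.3% of it in control and 19.5% after IL-4. 18S held 48.7% and 58.6%, and ITS1, at the score of the segment it shares with 18S, held 18% and 21.9%. The 5' ETS is a spacer that is removed early and has no use in the ribosome, while 18S is present in every mature small subunit, and the lists hold nothing that separates nascent from mature 18S. The part of mature rRNA in these values was not tested.

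**Figure D2:**
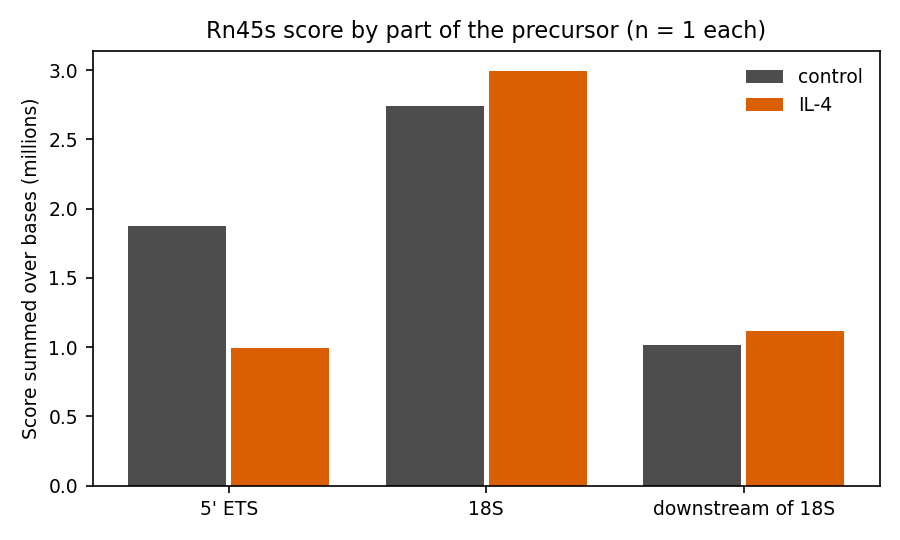
Score summed over the covered bases of each part of the precursor (vertical axis, score times bases) in the control library (grey bars) and the IL-4 library (orange bars), n = 1 each and no error bars. The 5' ETS sum is 1877000 in control and 994000 after IL-4, whereas the 18S and ITS1 sums are slightly higher after IL-4 as printed. Their log2 ratios, 0.13 and 0.14, are near the 0.15 of the median gene by summed score times length. ITS1 bases carry the score of a segment that begins in 18S.

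Most of the 5' ETS difference stood where the segments were cut differently. Over the 2566 bp of 5' ETS that were covered in both libraries, the sum was 1612000 in control and 912300 after IL-4, a log2 ratio of -0.82. The difference on these bases was -699000, of which -585000 lay within 774 bp, chr17:39844611-39845384, which belonged to segment 2 in control and to the long, low-scoring segment 1 after IL-4. Over that stretch the score was 995.7 per base in control and 239.9 after IL-4. Over the other 1792 bp the sums were 841000 and 726700, a log2 ratio of -0.21. A single score was printed for each segment, so the files do not show whether signal within the 2389 bp of the long segment was uneven, and the part of the division into segments in the 5' ETS difference was not tested.

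Some bases were covered in only one library. The control-only run, chr17:39845914-39846457, was 544 bp long. It took in the last 439 bp of the 5' ETS and the first 105 bp of 18S, and all of it scored 603.9 in control. Its GC content was 65.3%, between those of the whole 5' ETS and of 18S. The capitals and lower-case letters of the middle pair of sequences above mark its limits. After IL-4 the run of 352 bp at the front of the gene (39842996-39843347) was covered at a score of 232.7, where control had no segment. A further 11 bp at the far end were covered after IL-4 only. A base without a segment was not called, which sets no upper limit on its signal, since the lists do not give the level below which segments were left out.

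In each library, Rn45s held more of the summed score times length than any other gene name. Its part was 41.0% in control and 36.8% in the IL-4 library. It did so on 0.0522% of the called length in control (5639 bp) and 0.029% after IL-4 (5374 bp). The next name was Cdk8, a kinase of the mediator complex, with 5.5% and 4.02%, and Rn45s exceeded it 7.45 times in control and 9.17 times after IL-4. The Cdk8 segment with the top score, however, was an rRNA repeat within intron 2 of that gene. By mean score per called base, Rn45s stood at 1030 in control and 967.9 after IL-4, against 0.5084 and 0.3513 for all segments outside rRNA and the mitochondrion. By the score of its highest segment, Rn45s had rank 4 among gene names in control, after Axin2, Cdk8 and Epm2a, and rank 1 after IL-4. Each of the 3 names above it owed its score to an rRNA repeat. The first name with no rRNA annotation was Rpp21 in control, at 1014.3, and Limd1 after IL-4, at 814.8. The Rpp21 segment was annotated as CpG. The Limd1 segment was annotated as the 3' UTR of a transcript of 21 exons, which the annotation does not name as Limd1. Whether either score belongs to the gene named was not tested. Malat1, an abundant nuclear non-coding RNA, held 2.02% of the score times length in control and 1.54% after IL-4.

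The share of Rn45s depended on what it was set against. Its score times length was lower after IL-4 (log2 ratio -0.16), while that of all segments outside rRNA and the mitochondrion was higher (0.24), and the library totals were nearly equal (-0.01). The IL-4 list was longer, at 18507738 bp called against 10797809 bp. Among segments with a score of at least 1, Rn45s held 52.3% of the score times length in control and 53.3% after IL-4, so that the order of the libraries turned.

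**Figure D3:**
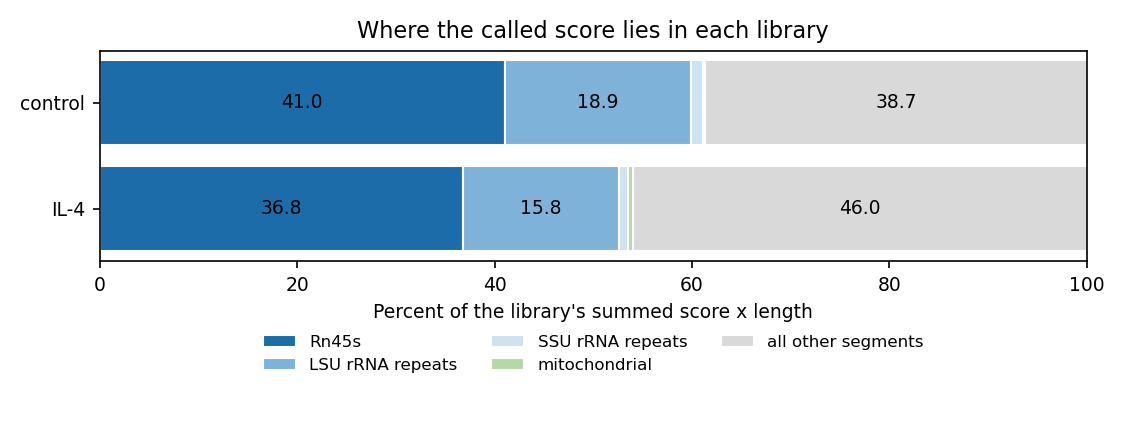
Percent of each library's summed score times length (horizontal axis) that lay on Rn45s, on repeats annotated as large-subunit (LSU) or small-subunit (SSU) rRNA, on the mitochondrial genome and on all other segments, for the control and the IL-4 library (1 each). Rn45s takes 41.0% in control and 36.8% after IL-4, and all other segments take 38.7% and 46.0%.

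Because the mm10 copy stops in ITS1, 28S rRNA has no place in it, and the other large rRNA signal was sought in segments annotated as an rRNA repeat elsewhere in the genome. There were 70 such segments in control and 73 after IL-4. LSU repeats, which resemble 28S rRNA, were 62 and 64 of these and held 18.9% of the score times length in control and 15.8% after IL-4. SSU repeats, which resemble 18S rRNA, were 7 in each library and held 1.25% and 0.887%. Repeats of 5S rRNA, which RNA polymerase III transcribes from other genes, were 1 and 2 segments with scores of 1.6 or less. Rn45s and these repeats together held 61.2% in control and 53.5% after IL-4. Rn45s alone made up 67.0% of that nuclear rRNA signal in control and 68.8% after IL-4.

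In control, 3 LSU repeats scored above every Rn45s segment. The intergenic repeat named for Axin2 (chr11:109011636-109011962, minus strand) scored 2125.5 in control and 1521.0 after IL-4. The repeat in Cdk8 (chr5:146260991-146261363, plus strand) scored 2088.8 and 1816.6. The intergenic repeat named for Epm2a (chr10:11492087-11492191, minus strand) scored 1928.3 and 1253.2. The repeat in intron 1 of Filip1l (chr16:57391421-57391682, minus strand) went the other way, with 1193.4 in control and 1410.6 after IL-4. Among SSU repeats, the top one (chr6:3201322-3201670, plus strand, named for Gm8579) scored 492.4 and 381.3. These are positions where a piece of rRNA-like sequence happens to lie, and the gene names attached to them do not mean transcription of those genes.

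Rn45s and the repeats were then compared pair by pair, with ratios as printed and not centred. By highest score, the median log2 ratio over the 8879 genes scored in each library was -0.38. Of 67 rRNA-repeat segments with a counterpart in the other library, 24 scored higher after IL-4, 34 lower and 9 the same, with a median log2 ratio of -0.04. Among the 19 pairs with a score of at least 100 in a library, 2 were higher (Filip1l and Kpna1) and 17 lower. Their median was -0.35, near that of the genes, and their range was -0.64 to 0.28. None of these 19 was 2-fold apart. The 3 Rn45s segments over 18S and ITS1, with log2 ratios of 0.22, 0.06 and 0.12, were within the range of these pairs and above their median. Of the 5' ETS pairs, those with 1291 and 528 shared bp were at -0.13 and -0.30, also within that range. Control segment 2 and IL-4 segment 1, which shared 774 bp, were at -2.12, below that range. Control segment 3 and IL-4 segment 2, which shared 55 bp, were at 0.44, above it. Reads of one source can be split over several such repeats, so that the pairs are not independent of one another.

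**Figure D4:**
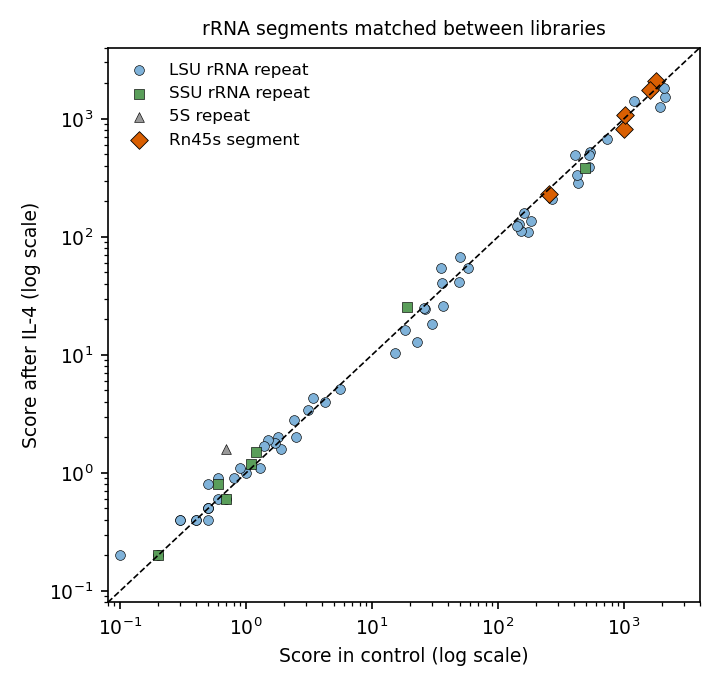
Score after IL-4 (vertical log axis) against score in control (horizontal log axis) for matched segments annotated as LSU, SSU or 5S rRNA repeats and for matched Rn45s segments, each point 1 pair and the dashed line equality. The 17 of 19 repeat pairs of score 100 or more that are lower after IL-4 lie below the line. The 3 Rn45s segments over 18S and ITS1 lie on or just above it. Scores are as printed, not centred. Control segment 2 with IL-4 segment 1 (774 shared bp, 1009.3 and 232.7) is not drawn. Neither is control segment 3 with IL-4 segment 2 (55 shared bp, 603.9 and 818.1).

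Mitochondrial segments held 0.166% of the score times length in control and 0.51% after IL-4. The 18S model was compared with mt-Rnr1, the mitochondrial small-subunit rRNA gene, since reads of one could be placed on the other where they match. The longest exact run that they shared was the following 15 bases, at positions 1804 to 1818 of 18S and 911 to 925 of mt-Rnr1.
shared run: AAGTCGTAACAAGGT

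For a comparison with other genes, the value of a gene was its highest score, and the log2 ratio (IL-4 over control) was set relative to its median, -0.38, over the 8879 genes scored in each library. Rn45s had values of 1808.9 and 2099.7, and its centred log2 ratio was 0.59, above that of 79.8% of the genes. It did not reach the 2-fold mark. For background, 716 genes (8.06%) were at least 2-fold higher by this measure and 765 genes (8.62%) at least 2-fold lower. The direction for Rn45s depended on the measure. With score times length summed over its segments, the centred ratio was -0.31, above that of 37.5% of the genes. Rn45s was thus neither 2-fold higher nor 2-fold lower by either measure.

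The genes that make and process the precursor gave far lower values. RNA polymerase I consists of subunits of its own (Polr1a to Polr1e and others) and subunits shared with the other polymerases, and is brought to the promoter by the factor UBF (Ubtf), the SL1 complex of TBP and its partners (Taf1a to Taf1d) and the initiation factor TIF-IA (Rrn3). The list of 27 genes held these and other factors, among them Ttf1, Baz2a, Sirt7, Top1 and Myc. Of the 27, 19 were scored in each library, 2 in the control library alone, 2 in the IL-4 library alone and 4 in neither. One gene was at least 2-fold higher and 2 were at least 2-fold lower, against 8.06% and 8.62% over all genes, and the median centred log2 ratio was 0.38, beside 0 over all genes by construction. The 0.38 is the ratio of a gene with the same printed score in both libraries, and many of these genes had values of 0.1 to 0.4, where a step of 0.1 moves the ratio considerably. Polr1a, the largest subunit, had no segment in either library. Polr1b, the second largest, had 0.5 in control and 0.4 after IL-4. Polr1c, Polr1d and Polr1e had equal scores in each library, at 0.3, 0.2 and 0.3.

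Segments named Ubtf gave 0.4 in each library, but the IL-4 segment lay on the strand opposite to the gene. Over Ubtf on its own strand the highest score was 0.8 in control and 0.2 after IL-4, the same printed values as for Taf1c. Rrn3 had 0.4 in control and 0.5 after IL-4. Ttf1, which ends RNA polymerase I transcription at the terminator, had 0.2 and 0.3. Rrn3 and Ttf1 were within 2-fold, with segments on their own strands. For Ttf1, however, the control score came from a simple repeat in intron 7, 16349 bp from its start. The IL-4 score came from 345 bp. Taf1c was lower, with 0.8 in control and 0.2 after IL-4 from segments in intron 1 on the gene's own strand (centred log2 ratio -1.62, rounding range -2.12 to -1.21). The rounding range is the span of ratios that the printing of scores to 1 decimal allows. Taf1b, at 0.7 and 0.2, was also lower (-1.43, -1.94 to -1.0), and its control score came from a simple repeat in intron 8. The gene counted higher was Polr2e, a subunit shared by the polymerases, at 0.2 and 0.4, but both scores came from segments 9016 bp and 8580 bp from its start, in a neighbouring gene, and over the gene itself they were 0.2 and 0.1. Myc, a transcription factor that raises rRNA synthesis in many cells, had no segment in control and 0.4 after IL-4, in the 5' UTR of exon 1.

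The processing factors were similar in level. They include proteins of the box C/D particles that methylate rRNA (Fbl, Nop56, Nop58), nucleolin (Ncl) and nucleophosmin (Npm1), and the small-subunit processome. Of 42 genes, 24 were scored in each library, 4 in the control library alone, 10 in the IL-4 library alone and 4 in neither. None was at least 2-fold higher and 3 were at least 2-fold lower, beside 8.06% and 8.62% over all genes, with a median centred log2 ratio of -0.21. Over all 11054 genes with a value, 948 had one in the control library alone and 1227 in the IL-4 library alone. Nop2, an rRNA methyltransferase, had 1.9 in control and 0.6 after IL-4, but its segments lay outside the gene in SINE repeats. Dis3, a nuclease of the exosome, had 0.8 and 0.2, from segments 68045 bp and 67965 bp from its start. Wdr12, a factor for the large subunit, had 0.3 and 0.1, with a rounding range of -2.43 to -0.36 that reaches under 2-fold. The 3 lower calls thus rested on segments away from the gene or on scores near the last printed digit.

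The other processing genes fixed by name were within 2-fold by the named segments or had a value in only 1 library. Nop56 had 1.7 in control and 1.0 after IL-4, whereas the highest score over the gene on its own strand was 3.3 and 4.4. Ncl had 0.4 and 0.3, and over the gene 7.8 and 5.2. Fbl had 0.2 in both libraries, and over the gene on its own strand 0.6 and 0.4. Nolc1, a nucleolar phosphoprotein, had 0.5 and 0.3 from segments before its start in another transcript, and over the gene on its own strand no segment in control and 0.1 after IL-4. Npm1 and Nop58 had no segment in control and 0.2 and 0.3 after IL-4, for Npm1 on the opposite strand. By name, the highest value among the 69 genes of both lists was 2.3, for Nol11 in control, from a segment 58572 bp from its start and outside the gene, and over Nol11 itself the score was 0.2 in each library. Over the genes on their own strands, the highest score was 7.8, for Ncl in control, against 1808.9 for Rn45s in that library. A score for Rn45s is a sum over many repeats, while these are single genes, so the levels are not per gene copy.

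**Figure D5:**
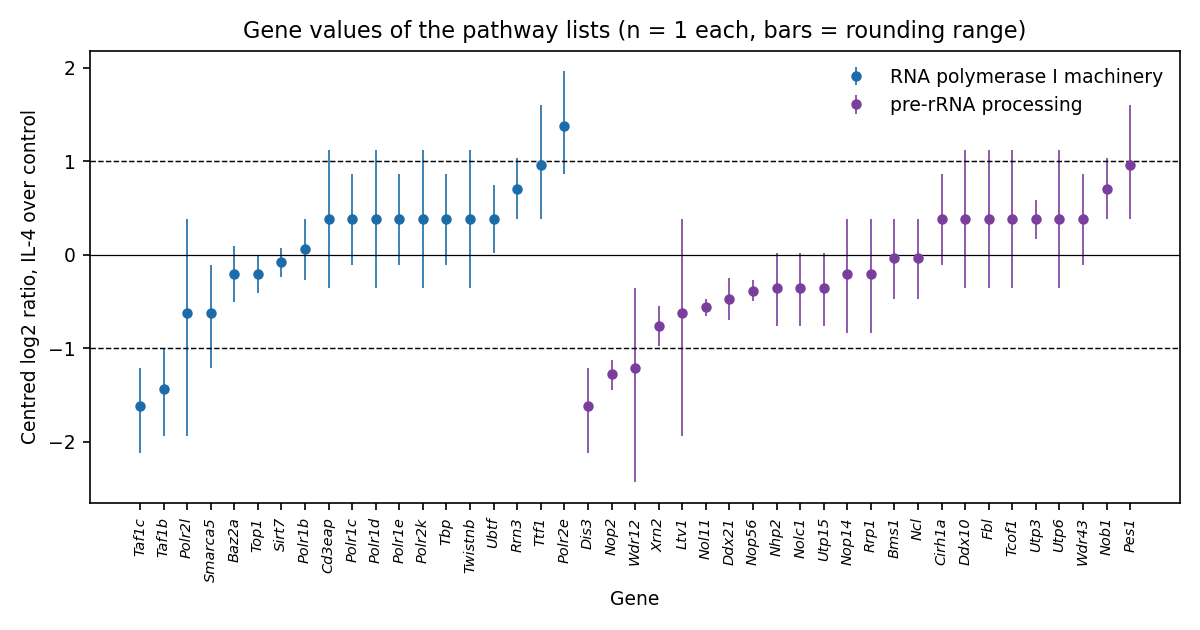
Centred log2 ratio of IL-4 over control (vertical axis) for each gene with a value in both libraries. The lists are the RNA polymerase I machinery with other listed factors (blue, 19 genes) and pre-rRNA processing (purple, 24 genes). Bars give the rounding range and dashed lines mark 2-fold. One gene lies above and 5 below the dashed lines, and the rounding ranges of 3 of these 6 stay beyond them.

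Other structured non-coding RNAs give a scale for Rn45s. Of 18 such genes, 9 had a value in both libraries, 1 was at least 2-fold higher, none was at least 2-fold lower (8.06% and 8.62% over all genes), and the median centred log2 ratio was 0.17. The highest was Malat1, at 80.7 in control and 63.3 after IL-4, from different stretches of the gene. The IL-4 segment over the control stretch scored 52.1. Neat1, the RNA of paraspeckles, had 28.1 and 15.0, also from different stretches. The control score came from a simple repeat 18504 bp from its start, the IL-4 score from 1036 bp. Rmrp, the RNA of the RNase MRP that cuts ITS1, had 15.4 and 19.2. Rpph1, the RNA of RNase P, had 7.3 and 6.3. Rnu11, a small nuclear RNA of the minor spliceosome, was the gene counted higher, at 7.3 and 11.3 (1.01, rounding range 0.99 to 1.03). No segment was named for Rn7sk, Rn7s1 or Rn7s2, although a segment of another name overlapped Rn7sk on its strand with 9.4 and 8.6. All of these values were far under the 1808.9 and 2099.7 of Rn45s.

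The labelled cell type was checked against its markers. Of 10 macrophage markers, 8 had a segment in both libraries, with scores of 0.5 to 5.8 in control and 0.5 to 13.1 after IL-4, and a sum of 21.1 and 30.9. The higher sum came from Mrc1, a gene of alternative polarization, at 2.7 and 13.1. Csf1r, Itgam, Lyz2 and Mertk scored lower after IL-4, Cd68 and Cebpa higher and Fcgr1 the same. Adgre1 and Spi1 had none. Of 12 markers of T cells, B cells, granulocytes, fibroblasts and dendritic cells, Cd79a and S100a8 had a segment in both libraries and S100a9 after IL-4 only, all at 0.5 or less, with a sum of 0.9 in each library. The T cell, fibroblast and dendritic cell markers had no segment.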

How the data were processed

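GRO-seq was performed on nuclei of BMDMs, with run-on reactions in duplicate pooled into 1 library per condition. Per the labels' processing notes and the study's methods, the authors aligned reads with BWA 0.7.10 to mm10 at default settings, used SAMtools 0.1.19, removed ENCODE blacklist regions, and called and annotated segments in each library with HOMER 4.2 in its GRO-seq mode. How reads that match several places were treated is not given in the sources used here. The deposited value is a score per segment with 1 decimal, whose scaling is not stated. Depth is unknown, so no interval was given. Samples were grouped by the treatment label.

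All segments were kept. Rn45s members were chosen by gene name, and the members and gene lists were chosen with earlier results of these data known. Shares were computed from score times length. Segments were matched between libraries by at least 1 bp on the same strand. Rn45s is not an entry of the reference tables used, so positions and sequences came from GENCODE M21 transcript models of the locus, and 11 bases at the 5' ETS to 18S junction had none. A gene's value was its highest score, ratios were centred on the median gene, and a ratio of at least 2-fold was counted, with a rounding range for scores known to within 0.05. Scripts were tested on simulated lists. Genes named by rule were Rn45s, the highest rRNA repeats, the leading names per library, list members at least 2-fold apart and a fixed set of pathway genes; Kpna1 and Nol11 were named after their values were seen. Python 3.11.15, pandas 2.3.3, numpy 2.4.6 and matplotlib 3.10.9 were used. The alternatives were other members, weights, score limits, rounding, gene values, centring and strand rules.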

Additional observations from a re-analysis of the deposited data

How the results depend on the processing

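Of 48 alternative values, 28 stayed close to the reported one, 19 moved and 1 turned direction. The Rn45s share of score times length, 41.0% in control and 36.8% after IL-4, was 52.3% and 53.3% among segments with a score of at least 1, 15.4% and 16.8% by score alone, 0.0522% and 0.029% by length alone, 29.8% and 23.4% without the Rn45s segment of highest score times length, and 51.4% and 44.5% with other rRNA repeats and mitochondrial segments left out. Over locus bases covered in both libraries it was 38.8% and 35.9%. These last 2 settings were chosen after seeing the data. Score alone and the limit at a score of 1 put the IL-4 share above the control share, and the cause was not tested. Rounding allowed 39.5% to 42.6% in control and 34.6% to 39.4% after IL-4, ranges that do not overlap.

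The centred log2 ratio of Rn45s, 0.59 by highest score, was 0.21 by summed score, 0.34 by length-weighted mean score, 0.22 without centring and -0.31 by summed score times length. For the latter, the median gene itself had a log2 ratio of 0.15. Pathway genes at least 2-fold higher numbered 1 as reported, 5 by summed score, 8 by summed score times length, and 0 with a value of at least 0.5 or with own-strand overlap (a setting also chosen after seeing the data). Those at least 2-fold lower numbered 5 as reported, 9 without centring and 4 to 7 otherwise. Segment numbers and the 100% share on the plus strand did not change with the settings run for them.

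No paired analysis was possible because each condition had 1 library and the labels carry no replicate numbers, and for the same reason no library was left out in turn. Depth is unknown, so low scores have no counting error here.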
